A study of Mus musculus with 6 samples.

Results

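The 9 genes described here regulate how blood clots form and dissolve: Serpine2, Plat, Plau, Plaur, F3, Thbd, Procr, Tfpi and Serpinf2. They were chosen by name, and each of the 9 has a row among the 18181 genes of the expression table. The samples were heart ventricle of C57BL6, an inbred laboratory mouse strain with no added allele or treatment in the labels. The aged group was 24 to 26 months old and the young group 6 to 8 weeks old, with 3 libraries each. The labels speak of separate samples but not of separate mice, so the tests compare ages with the spread among samples, which may be technical.

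Clotting starts when tissue factor, the product of F3, meets clotting factors of the blood, and Tfpi encodes the inhibitor of that step. Thrombomodulin (Thbd) and the endothelial protein C receptor (Procr) turn thrombin, the enzyme that makes fibrin, towards activation of the anticoagulant protein C. Fibrin is dissolved by plasmin, which is cut from plasminogen by tissue-type (Plat) or urokinase-type (Plau) plasminogen activator. The urokinase receptor (Plaur) holds Plau protein at the cell surface. Inhibitors of the serpin family, among them protease nexin (Serpine2) and antiplasmin (Serpinf2), restrain these proteases. Heart muscle cells are a known source of tissue factor, and the endothelium that lines vessels is a known source of Plat, Thbd, Procr and Tfpi.

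The unit of expression is FPKM, a fragment count corrected for the length of the transcript and the size of the library, so levels can be set side by side between genes. How deeply each library was sequenced cannot be read from such values. The values of a library summed to between 529258 and 566499. Heart muscle transcripts dominated as the tissue label implies, with Myh6, a myosin heavy chain, at 5614 to 6065 FPKM in aged and 5900 to 6919 in young. Aged replicates 1 and 2 stood apart: 10 markers of stratified epithelium summed to 286 and 459.8 FPKM in them, to 0.57 in aged replicate 3 and to 0.32 to 0.73 in the young libraries. Markers of red cells (4 of 4), fibroblasts (5 of 7) and mural cells (5 of 7) were called lower in aged and none was higher. Of all tested genes 17.1% were called lower. Pdgfra and Dcn of the fibroblast list and Myh11 and Kcnj8 of the mural list were not called. Fibroblast markers summed to 550.1 to 609.8 FPKM in aged and 715 to 865 in young, and mural markers to 291 to 326 in aged and 827 to 921 in young. A few genes carried most of these gaps: without the collagen genes Col1a1 and Col3a1 the fibroblast sums overlapped (484 to 538 FPKM in aged, 479.8 to 548 in young), and without the actin gene Acta2 the mural sums were 239 to 252 in aged and 284 to 357 in young. Dcn, at 364 to 410 FPKM in aged and 332 to 377 in young, made up most of the reduced fibroblast sum. Lum, Tcf21 and Dpt, also in that sum, were each called lower, with all aged libraries below all young ones. These reduced sums were chosen after the values had been seen. For members and named pathway genes, values for aged replicate 3 alone are given wherever they changed a call or a direction. For the cell type markers no such fit is given.

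Of the 9 genes, 1 was called between old and young ventricle. Among them, 8 averaged at least 1 FPKM and were tested with limma on log2(FPKM + 1), with Benjamini-Hochberg adjustment over all 11860 genes at that level. Of those 11860 genes 17.1% were called lower in aged and 9.32% higher. The urokinase receptor gene Plaur fell, to 1.84 ± 0.271 FPKM in aged against 2.95 ± 0.264 in young (SD, n = 3 each). None of the 8 was called higher (0 also at an unadjusted p under 0.05), and 7 were not called in either direction. Around them, the plasminogen-binding pair Anxa2 and S100a10 and the matrix protein Vtn were lower, and the protease inhibitor Serping1 was higher.

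**Figure D1:**
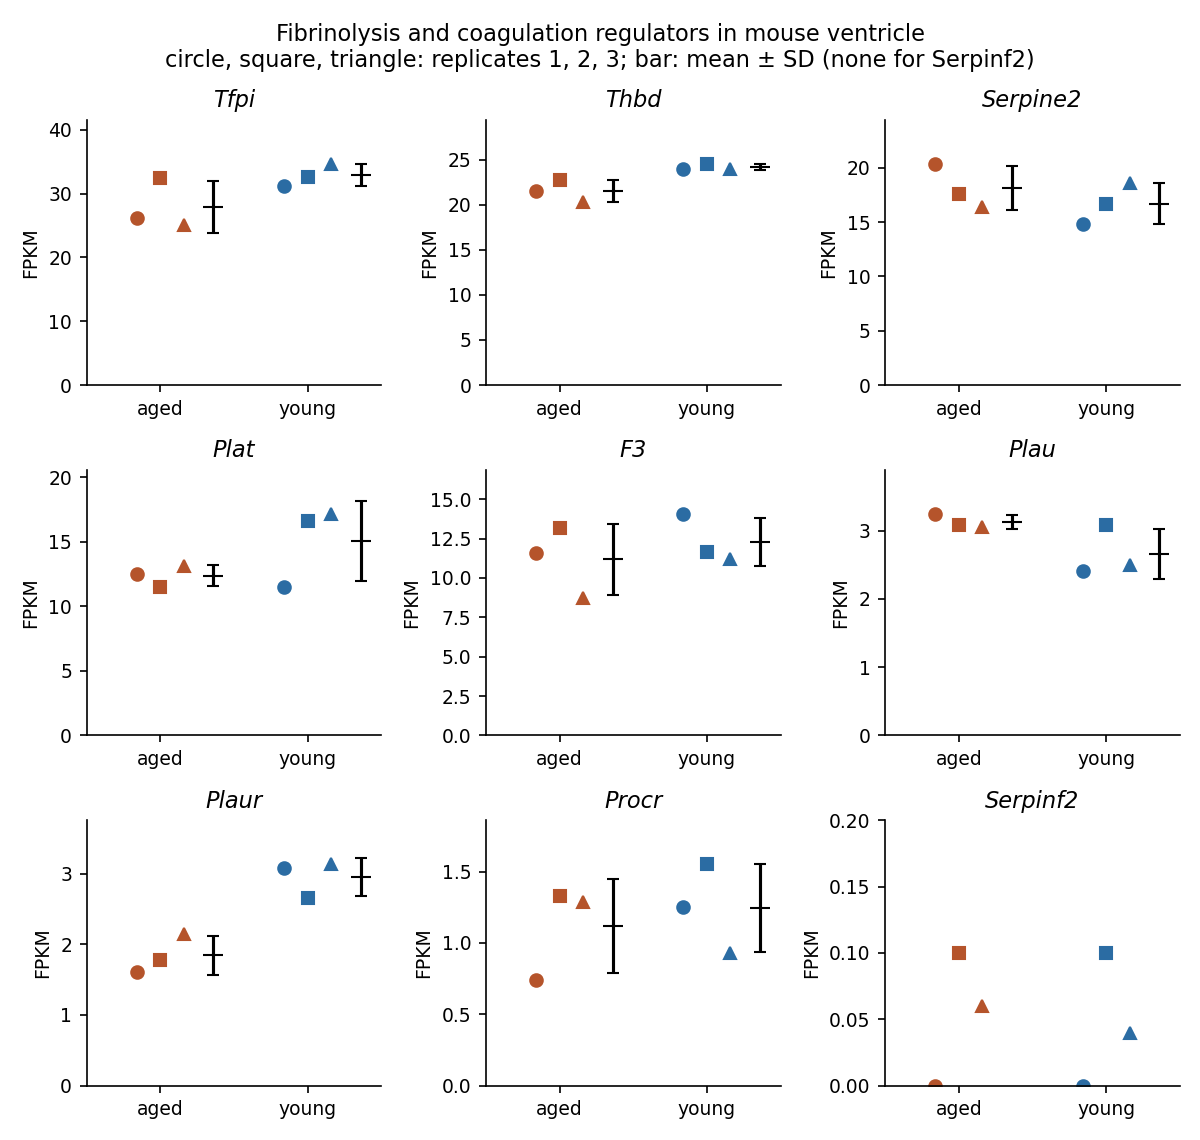
FPKM of each of the 9 genes (vertical axes, each from 0) in the 3 aged and 3 young libraries, with bars for mean and SD. For Plaur and Thbd the aged libraries all lie below the young ones, and Serpinf2 does not pass 0.1 FPKM in any library.

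By level, Tfpi and Thbd stood at the top and Procr and Serpinf2 at the bottom. Over the 6 libraries Tfpi averaged 30.4 FPKM, Thbd 22.9, Serpine2 17.4, Plat 13.7, F3 11.7, Plau 2.89, Plaur 2.40 and Procr 1.18. Tfpi was at the 87.1 percentile of all genes by level and Procr at the 36.2 percentile. Tfpi was above Thbd in each library, and the ranges of these neighbours did not overlap. The ranges did overlap between Thbd and Serpine2, between Serpine2 and Plat, between Plat and F3, and between Plau and Plaur. Plat was above F3 in 4 of 6 libraries and Plau above Plaur in 4 of 6. In the remaining 2 libraries, young replicates 1 and 3, Plaur was the higher of the pair.

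F3, which encodes tissue factor (chromosome 3, 121723537 to 121735052, GRCm38, protein-coding), was at 11.6, 13.2 and 8.75 FPKM in aged and, in the same order of replicates 1 to 3, at 14.1, 11.6 and 11.2 in young. The ages overlapped, and aged replicate 3 was the lowest library. The log2 difference, aged minus young, was -0.14 (SE 0.139, 95% interval -0.45 to 0.18, adjusted p = 0.504, limma). It was -0.44 with aged replicate 3 alone (adjusted p = 0.102, limma) and 0.014 without that library, so its direction rested on 1 library. Tissue factor is also made by stratified epithelium, and the aged libraries with such transcripts held the higher F3 values of their age, at 11.6 and 13.2. Their part in the F3 level was not tested.

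Tfpi, the inhibitor of the tissue factor pathway (chromosome 2, 84432855 to 84476775, protein-coding), was at 26.2, 32.5 and 25.0 FPKM in aged and at 31.2, 32.7 and 34.7 in young. Aged replicate 2 lay among the young libraries and the other aged libraries lay below them. Tfpi differed by -0.24 on the log2 scale (SE 0.0974, 95% interval -0.46 to -0.01) and missed the threshold (unadjusted p = 0.0393, adjusted p = 0.108, limma). Without aged replicate 2 the difference was -0.35 and passed it (adjusted p = 0.0166, limma). Tfpi has 8 protein-coding transcripts in the GENCODE vM21 annotation, and a gene-level value does not tell its secreted and membrane-bound forms apart.

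Thbd, the thrombin receptor thrombomodulin (chromosome 2, 148404471 to 148408188, protein-coding), was at 21.6, 22.8 and 20.3 FPKM in aged and at 24.0, 24.5 and 24.0 in young. All aged libraries lay below all young ones, but the gap was small. On the log2 scale it was -0.16 (SE 0.0649, 95% interval -0.31 to -0.01, unadjusted p = 0.0354, adjusted p = 0.1002, limma), so Thbd was not called. No alternative tried called it, with log2 differences from -0.24 to -0.10.

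Procr, the receptor that presents protein C to thrombomodulin (chromosome 2, 155751125 to 155755478, protein-coding), was at 0.74, 1.33 and 1.29 FPKM in aged and at 1.25, 1.55 and 0.93 in young. The ages overlapped, and the lowest library was aged replicate 1. The log2 difference of -0.08 (SE 0.167, 95% interval -0.46 to 0.29, adjusted p = 0.747, limma) leaves changes of that size in either direction undetected. It turned to 0.051 without aged replicate 1 and to 0.039 with aged replicate 3 alone.

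Some markers of endothelium, the usual source of these anticoagulant transcripts, were lower in aged ventricle. Of 10 endothelial markers 6 were called lower and 0 higher, while 17.1% of all tested genes were called lower. The summed level of the 10 was 393 to 416 FPKM in aged and 481 to 603 in young, with none at 0 in any library. Cdh5, the cadherin of endothelial junctions, had the largest fall of the 10. It was at 66.5, 66.5 and 71.4 FPKM in aged and at 96.1, 125 and 117 in young. Kdr (log2 difference -0.034), Emcn (-0.026), Cldn5 and Egfl7 were not called. In bulk tissue, fewer cells of a type and less RNA per cell cannot be told apart. The part of the endothelial markers in the values of Tfpi, Thbd, Procr and Plat was not tested.

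Plat, the tissue-type activator (chromosome 8, 22757722 to 22782848, protein-coding), was at 12.5, 11.5 and 13.1 FPKM in aged and at 11.5, 16.6 and 17.1 in young. Young replicate 1 lay level with the aged libraries, while young replicates 2 and 3 lay above them all. The difference in Plat was -0.25 on the log2 scale (SE 0.135, 95% interval -0.55 to 0.06, adjusted p = 0.213, limma). Without young replicate 1 it was -0.42 and passed the threshold (adjusted p = 0.00867, limma), so the outcome for Plat rested on that library.

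Plau, the urokinase-type activator (chromosome 14, 20836662 to 20843388, protein-coding), was at 3.24, 3.08 and 3.05 FPKM in aged and at 2.41, 3.08 and 2.49 in young. The aged libraries lay close together, and young replicate 2 reached them. Its log2 difference was 0.18 (SE 0.105, 95% interval -0.06 to 0.42, adjusted p = 0.252, limma). It was above 0 under each of the 15 alternatives that tested it, at 0.13 to 0.26, and was called under none.

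Plaur, the urokinase receptor (chromosome 7, 24460937 to 24475970, protein-coding), was at 1.61, 1.78 and 2.14 FPKM in aged and at 3.08, 2.65 and 3.13 in young. All aged libraries lay below all young ones, and the level in aged was 1.60-fold lower. In the limma fit Plaur differed by -0.48 on the log2 scale (SE 0.115, 95% interval -0.74 to -0.22, adjusted p = 0.0161, limma). It was called under 12 of the 15 alternatives that tested it. The call was lost without aged replicate 1 (log2 -0.42, adjusted p = 0.0578), without young replicate 3 (-0.44, adjusted p = 0.0676) and with aged replicate 3 alone (-0.33, adjusted p = 0.218, limma).

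Macrophages are a known source of Plaur, and 2 of 7 macrophage markers, Csf1r and Mrc1, were lower while 0 were higher. Among all tested genes 17.1% were called lower. Csf1r, the receptor for the macrophage growth factor, was at 17.1, 18.7 and 16.8 FPKM in aged and at 25.5, 25.5 and 26.0 in young. The summed level of the 7 markers overlapped between ages, at 289 to 378 FPKM in aged and 328 to 354 in young, and none was at 0. Lyz2 and C1qa, which were not called, made up most of that sum. Adgre1 was at 5.23 to 7.50 FPKM in aged and 7.87 to 8.92 in young. Cd68 and Fcgr1 overlapped between ages, and neither they nor Adgre1 were called. Neutrophils also carry Plaur. Their granule markers Mpo, Elane, Ngp and Camp were at 0 to 0.04 FPKM in aged and 0 to 1.83 in young, and Ly6g was listed at 0 in aged and at 0 to 0.12 in young. Retnlg was at 0.17 to 0.58 FPKM in aged and 0.19 to 0.50 in young. The calcium-binding S100a8 (log2 2.63, adjusted p = 0.0216) and S100a9 (log2 2.83, adjusted p = 0.0310), the 2 genes of the neutrophil list that could be tested, were called higher in aged by limma. Stratified epithelium also expresses both, and both were highest in aged replicates 1 and 2. In aged replicate 3 S100a8 was at 2.91 FPKM and S100a9 at 3.15, within the young ranges of 0.27 to 3.13 and 0.40 to 4.07. The part of these cells in the fall of Plaur was not tested.

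Upstream sequences of 6 of the 9 genes are in the RefSeq promoter table (GRCm38.p6), and those of Plaur, F3 and Procr are shown because they share a motif while Plaur was called and the other two were not. Capitals mark TGACTCA, the element known for binding AP-1 factors, or its reverse strand TGAGTCA, and the windows are cut where a GENCODE vM21 transcript begins. The Plaur window is chr7:24462233-24462482, plus strand, inside the RefSeq span of the gene.
Plaur: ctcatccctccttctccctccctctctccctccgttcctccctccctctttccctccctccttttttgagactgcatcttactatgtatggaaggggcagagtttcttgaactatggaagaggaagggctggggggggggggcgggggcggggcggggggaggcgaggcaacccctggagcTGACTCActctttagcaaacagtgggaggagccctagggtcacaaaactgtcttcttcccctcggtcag
The F3 window is chr3:121723287-121723536, plus strand.
F3: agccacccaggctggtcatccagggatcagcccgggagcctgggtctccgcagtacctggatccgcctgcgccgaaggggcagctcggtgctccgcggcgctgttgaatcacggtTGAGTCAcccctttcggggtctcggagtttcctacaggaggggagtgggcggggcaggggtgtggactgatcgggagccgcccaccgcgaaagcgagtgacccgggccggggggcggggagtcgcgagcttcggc
The Procr window is chr2:155750967-155751116, plus strand.
Procr: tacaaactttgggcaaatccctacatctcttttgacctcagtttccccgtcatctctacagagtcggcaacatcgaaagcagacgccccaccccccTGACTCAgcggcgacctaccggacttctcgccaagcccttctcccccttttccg

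The motif began 69 bases before the transcript start of Plaur used in the promoter table, which lies downstream of the first base of the RefSeq gene span, and 135 bases before that of F3. Over 250 bases upstream of each start, searched on both strands, 4.46% of the 32851 promoters in the table hold it. The windows of Serpine2, Tfpi and Serpinf2 do not hold these letters. The GC box GGGCGG, also searched on both strands, occurs 3 times in the Plaur window, 3 times in that of F3 and 6 times in that of Serpine2, and is in 32.7% of all promoters. The first motif was chosen after sequences had been seen, and a match is a description of the letters. Plaur fell, while F3 and Procr, with the same letters, were not called. Outside the members, the window of Anxa2, which was called lower, holds the reverse strand TGAGTCA 95 bases before its start. The window of Vtn, also called lower, does not hold these letters. The part of the motif in any of these levels was not tested.

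Serpine2, a serpin that inhibits thrombin, urokinase and tissue-type activator (chromosome 1, 79794317 to 79858665, protein-coding), was at 20.4, 17.6 and 16.4 FPKM in aged and at 14.8, 16.6 and 18.6 in young. The ages overlapped over most of their range. Serpine2 differed by 0.11 on the log2 scale (SE 0.102, 95% interval -0.12 to 0.34, adjusted p = 0.455, limma). It was -0.015 with aged replicate 3 alone. Fibroblasts and mural cells are known sources of Serpine2, and the part of their lower markers in its level was not tested.

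Serpinf2, the main inhibitor of plasmin in blood and mostly a liver product (chromosome 11, 75431736 to 75439501, protein-coding), was listed at 0, 0.10 and 0.06 FPKM in aged and at 0, 0.10 and 0.04 in young. It was below the level for testing, and an exact permutation test of the 6 values gave a two-sided p of 1. Plg, which encodes plasminogen and is likewise made in liver, was listed at 0 in all 6 libraries. None of the 9 genes overlaps another gene in the GENCODE vM21 annotation.

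As a group, 1 of the 8 tested members was called, lower in aged (12.5%), while 17.1% of all tested genes were called lower, 9.32% higher and 26.4% in either direction. The aged and young libraries did not overlap in 2 of the 8 (Plaur and Thbd), against 43% of all tested genes. At an unadjusted p under 0.05, 3 of the 8 were lower (Plaur, Thbd and Tfpi), a share of 37.5% against 38.9% of all tested genes in either direction. Log2 differences were below 0 for 6 of 8 members and for 60.4% of all tested genes, and their median was -0.15 against -0.06. With 8 genes these shares are a description, and no difference between the members and other genes was tested.

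**Figure D2:**
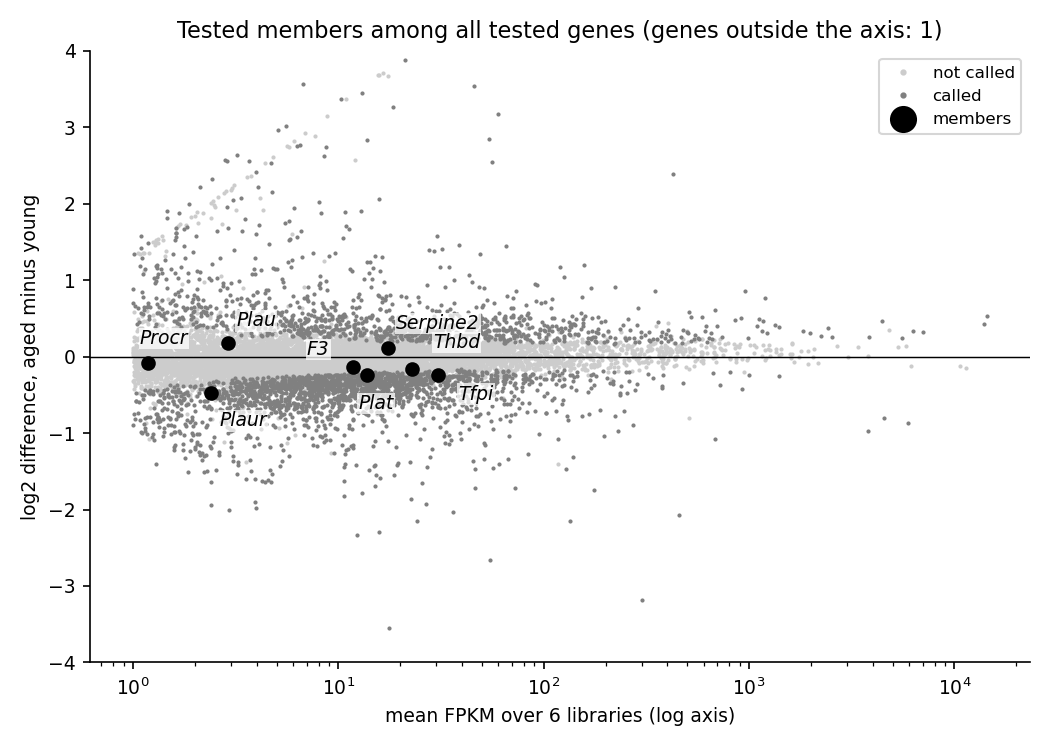
Log2 difference, aged minus young (vertical axis), against mean FPKM on a log axis for each of the 11860 tested genes, with the 8 tested members in black. The members lie between -0.48 and 0.18 and, except for Plaur, among the genes that were not called; 1 gene lies outside the axis.

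The surrounding pathway was described by 4 lists with 54 further genes, of which 26 were tested. Of these 26, 2 were higher and 8 lower, so 38.5% were called, against 26.4% of all tested genes, and their median log2 difference was -0.20. With aged replicate 3 alone 1 was higher and 1 lower. Among 9 tested genes of the plasminogen system 0 were higher and 4 lower (median -0.16, with 4 at an unadjusted p under 0.05 by limma). Among 7 tested coagulation factors and genes of fibrin formation 1 was higher and 0 lower (median -0.15, with 3 at an unadjusted p under 0.05). Among 9 tested anticoagulant and vessel genes 1 was higher and 4 lower (median -0.33). In all 9 the ages did not overlap and the unadjusted p was under 0.05 by limma. Over all tested genes the ages did not overlap in 43%, and 38.9% had an unadjusted p under 0.05 by limma. Of the 4 protease-activated receptors only F2r could be tested, and it was not called.

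**Figure D3:**
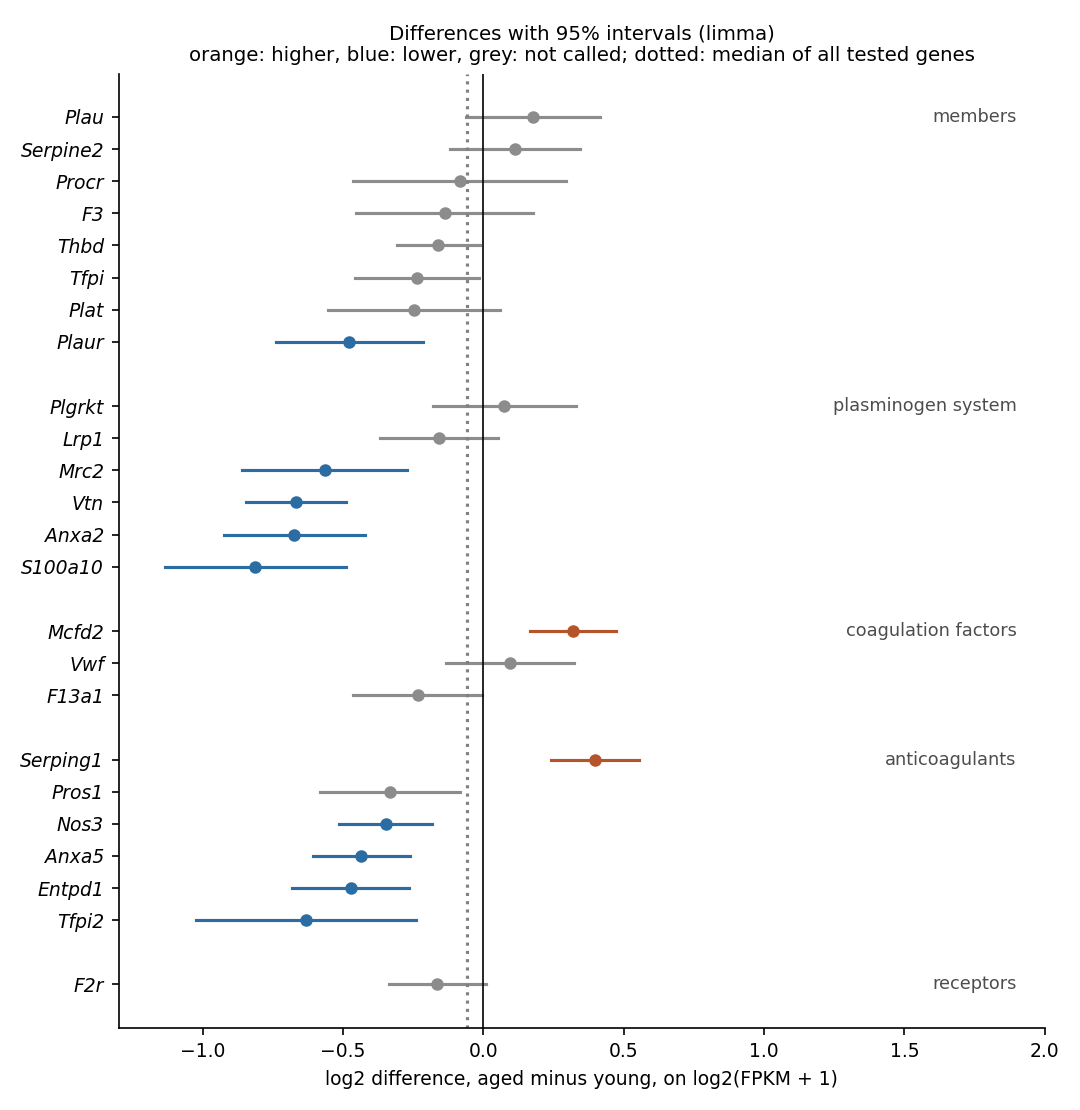
Log2 differences on log2(FPKM + 1), aged minus young, with 95% intervals from limma for the 8 tested members and 16 other named genes of the pathway, grouped by role; orange marks genes called higher, blue those called lower and grey those not called. Plaur is the sole member in colour, while Serping1 lies at 0.40 and S100a10 at -0.81.

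Anxa2 and S100a10 encode the subunits of a cell-surface complex that binds plasminogen and its tissue-type activator, and both fell. S100a10 was at 41.6, 44.2 and 45.3 FPKM in aged and at 59.0, 86.4 and 91.2 in young (log2 -0.81, SE 0.142, adjusted p = 0.00418, limma). Anxa2 was at 59.3, 55.8 and 58.6 FPKM in aged and at 75.8, 102.6 and 103 in young (log2 -0.67, SE 0.111, adjusted p = 0.00331, limma). In both genes young replicate 1 was the lowest young library, as it was for Plat. In the GENCODE vM21 annotation 2 genes, Mir3109 and Gm16144, overlap Anxa2. No strand marking of the reads is stated, so reads of overlapping genes may not be told apart. Another plasminogen receptor gene, Plgrkt, averaged 22.4 ± 0.732 FPKM in aged and 21.4 ± 3.91 in young (SD, n = 3 each) and was not called (adjusted p = 0.664, limma).

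Vtn, or vitronectin, a matrix and plasma protein that binds the urokinase receptor, was at 25.9, 21.8 and 23.9 FPKM in aged and at 36.4, 40.8 and 38.4 in young. The ages were far apart relative to their spread (log2 -0.67, SE 0.0785, adjusted p = 0.000628, limma), and the call held under all 16 alternatives. Mrc2, a collagen receptor that associates with the urokinase receptor, was 1.53-fold lower, at 7.16 ± 1.60 FPKM in aged and 10.9 ± 0.268 in young (SD, n = 3 each). Its log2 difference of -0.57 was -0.28 with aged replicate 3 alone, where the call was lost (adjusted p = 0.136, limma). S100a10 (-0.76, adjusted p = 0.0833) and Anxa2 (-0.66, adjusted p = 0.0655) also lost their calls there by limma, while Vtn did not. Lrp1, the receptor that clears activators bound to their inhibitors, averaged 15.8 ± 1.95 FPKM in aged and 17.7 ± 1.07 in young and was not called.

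Clotting factors were scarce in ventricle at both ages. F2, F5, F7, F9, F10, F11 and F12 and the fibrinogen genes Fga, Fgb and Fgg did not pass 0.31 FPKM in any library. F8 was at 0.32 to 0.45 FPKM in aged and 0.33 to 0.56 in young. F13a1, the subunit that cross-links fibrin, and Vwf, which tethers platelets, were well above these levels. F13a1 averaged 17.0 ± 2.22 FPKM in aged and 20.1 ± 1.54 in young (SD, n = 3 each). Its aged libraries lay below the young ones, but it was not called (log2 -0.23, adjusted p = 0.120, limma). Vwf averaged 12.9 ± 1.73 FPKM in aged and 11.96 ± 0.917 in young and was not called. Mcfd2, part of the receptor that carries factors V and VIII out of the endoplasmic reticulum, was 1.26-fold higher, at 37.4, 34.1 and 34.9 FPKM in aged and 27.2, 27.6 and 30.0 in young (log2 0.32, SE 0.0671, adjusted p = 0.00919, limma). That call was lost with aged replicate 3 alone (0.30, adjusted p = 0.104).

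Of the anticoagulant and vessel list, Tfpi2, Entpd1, Nos3 and Anxa5 were lower. Tfpi2, a relative of Tfpi that inhibits plasmin, was at 1.58, 0.66 and 1.43 FPKM in aged and at 2.18, 2.53 and 2.45 in young (log2 -0.63, SE 0.172, adjusted p = 0.0265, limma). With a pseudocount of 0.1 it was -0.99. Entpd1, an enzyme that removes platelet-activating ADP, was 1.48-fold lower, the nitric oxide synthase gene Nos3 1.29-fold, and Anxa5, which covers exposed phosphatidylserine, 1.36-fold. With aged replicate 3 alone these calls were lost, at adjusted p = 0.112 for Tfpi2, 0.117 for Entpd1, 0.150 for Nos3 and 0.0711 for Anxa5 by limma. Tfpi2 also missed the threshold of the limma fit when young replicate 2 (adjusted p = 0.0821) or 3 (0.0855) was left out, with no filter (0.0545) and with quantile normalization (0.0590). Serping1, the inhibitor of complement C1 that also blocks contact activation, went the other way, at 133, 119 and 141 FPKM in aged and 96.6, 101 and 99.6 in young (log2 0.40, SE 0.069, adjusted p = 0.00409, limma). Its call held under all 16 alternatives. Pros1, the cofactor of activated protein C, averaged 7.81 ± 1.01 FPKM in aged and 10.1 ± 1.11 in young and narrowly missed the threshold (log2 -0.33, adjusted p = 0.0542, limma). It passed under 5 of 16 alternatives, the replicate block among them (adjusted p = 0.0230).

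The thrombin receptor gene F2r averaged 18.4 ± 0.619 FPKM in aged and 20.8 ± 1.78 in young (SD, n = 3 each) and was not called (log2 -0.16, adjusted p = 0.143, limma). F2rl3, a thrombin receptor of mouse platelets and of endothelium, was too low to be tested, at 0.50, 0.17 and 0.32 FPKM in aged and 0.59, 1.27 and 1.34 in young. The ages did not overlap, and the exact permutation p was 0.1, the smallest that 3 libraries against 3 allow. With low genes kept, limma placed it just inside the threshold (log2 -0.62, adjusted p = 0.0491). Among platelet markers Pf4 summed with 11 others to 35.9 to 51.7 FPKM in aged and 38.3 to 39.1 in young. Most of that sum was Pf4, at 29.6 to 33.9 FPKM in every library. Of the 3 tested platelet markers 0 were called. All 3 had an unadjusted p under 0.05 by limma, as did 38.9% of all tested genes. Their directions differed, with log2 differences of -0.15 for Pf4, 1.05 for Ppbp and 0.30 for Gp1ba.

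Ratios within a library do not depend on how libraries are scaled to each other, and 2 pairs of a regulator and its partner were formed after the values had been seen. The Plaur to Plau ratio, receptor to its protease, was 0.497, 0.578 and 0.702 in aged and 1.28, 0.860 and 1.26 in young. The ages did not overlap, and the mean ratio was 1.91-fold lower in aged. The exact permutation test gave two-sided p = 0.1, the smallest it can give for 3 against 3 (0.2 adjusted over the 2 ratios). The F3 to Tfpi ratio, initiator to inhibitor, was 0.443, 0.405 and 0.350 in aged and 0.450, 0.356 and 0.324 in young, and its exact permutation p was 0.8. Its direction turned without young replicate 3 and with aged replicate 3 alone. A ratio shows unequal change of its terms, not which of them moved.

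**Figure D4:**
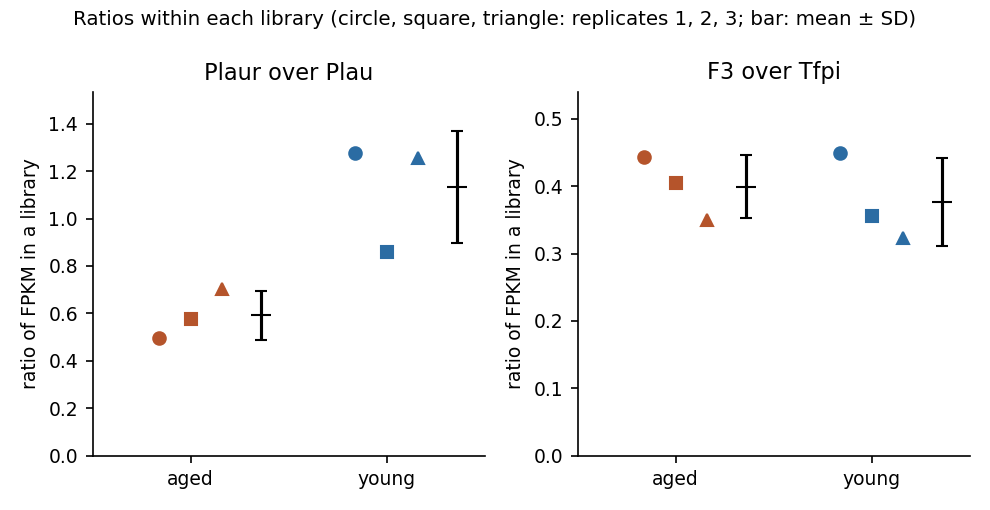
Ratio of the FPKM of 2 genes in each library (vertical axes, each from 0), with mean and SD, for Plaur over Plau and F3 over Tfpi. The aged libraries lie at 0.497 to 0.702 for Plaur over Plau, below the young ones at 0.860 to 1.28, while the ages overlap for F3 over Tfpi.

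Nearest patterns were searched among the tested genes, leaving out members and predicted gene models (symbols of Gm and a number, or ending in Rik). Of the genes searched, those closest to Plaur over the 6 libraries were Sf3b3, a subunit of the splicing machinery, and Pdia4, a folding enzyme of the endoplasmic reticulum. The root mean square distance between their log2(FPKM + 1) values, each centred on its own mean, was 0.0349 for Sf3b3 and 0.0402 for Pdia4. Sf3b3 was at 14.9, 15.2 and 17.7 FPKM in aged and at 23.3, 22.0 and 23.6 in young. Pdia4 was at 12.98 to 14.7 FPKM in aged and at 17.4 to 19.95 in young.

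**Figure D5:**
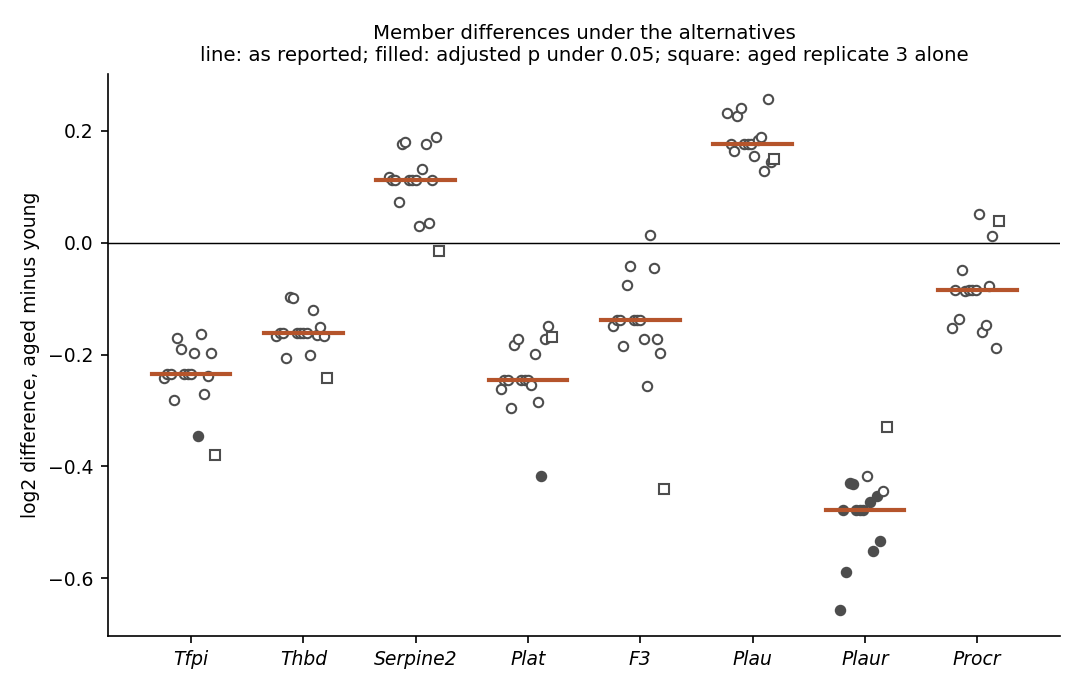
Log2 difference, aged minus young (vertical axis), of the 8 tested members as reported (line) and under each alternative (points, filled where the adjusted p was under 0.05, square for aged replicate 3 alone). Plaur stays below 0 throughout, between -0.66 and -0.33, while Serpine2, F3 and Procr each cross 0.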

How the data were processed

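Poly(A) RNA of 6 ventricle samples was sequenced as paired reads, per the labels' protocols. The values are FPKM for each gene in each library, as deposited. Tools named in the submitters' processing notes, with no role stated, are RSEM 1.2.12, Bowtie2 2.2.5, DESeq2 1.4.5 and HISAT2 2.0.4, and the build named is mm10. Annotation and filters are not stated, and depth is unknown, so no counting interval is given.

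Groups follow the ages in the labels. Aged minus young was fitted with limma 3.58.1 in R 4.3.3 (lmFit, eBayes with a mean trend, two-sided) on log2(FPKM + 1) for 11860 genes averaging 1 FPKM or more. This scale understates changes of low genes, and folds are ratios of mean FPKM. A call is a Benjamini-Hochberg adjusted p under 0.05 over all tested genes. The steps were tested on simulated data. Coordinates and promoters came from RefSeq (GRCm38.p6). Members, lists and tests were chosen with earlier results of these data known. Named genes are the members, called pathway genes (up to 6 per list), a set of 12 pathway genes, markers beside a member's result, and the 2 nearest profiles of each called member; others complete a count. Exact tests used scipy 1.17.1 and figures matplotlib 3.10.9.

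Alternatives changed the scaling (quantile, median-of-ratios, TPM), the low-value filter (none, or 5 FPKM), the pseudocount (0.1) and the fit (no mean trend, robust eBayes, a replicate block). Each library was also left out in turn. Aged replicate 3 was tested alone, on the assumption that 1 sample varies as the young ones do. F13b, Kng1 and Serpina10 were not analysed here, and 1 further gene is not reported here.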

Additional observations from a re-analysis of the deposited data

How the results depend on the processing

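None of the members was called higher under any alternative. Plaur was the only member called lower in the fit reported (1 gene). The count was 0 at a minimum of 5 FPKM, where Plaur is not among the genes tested, 0 with aged replicate 3 alone, and 0 to 2 when each library was left out in turn. With aged replicate 3 alone 420 genes of the whole table were higher and 552 lower, and leaving out each library gave 718 to 1020 higher and 1164 to 1958 lower, with the fewest of each without young replicate 3 (1242 lower without young replicate 2). Of the pathway genes, 1 was higher and 1 lower with aged replicate 3 alone, a count added after seeing the data. All these fits hold fewer samples. The fit with aged replicate 3 alone also leaves out aged replicates 1 and 2, the libraries with stratified epithelium markers. These 2 differences cannot be told apart there, and the cause was not tested. Median-of-ratios scaling gave 1483 genes higher and 1507 lower, and quantile scaling 1316 and 1500, against 1105 and 2026 as reported.

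Directions that turned were all of genes not called. With aged replicate 3 alone the log2 difference was -0.015 for Serpine2, 0.039 for Procr and 0.028 for Lrp1. Leaving out each library gave -0.26 to 0.014 for F3, -0.19 to 0.051 for Procr, -0.026 to 0.21 for Plgrkt and -0.00061 to 0.18 for Vwf. No scaling turned the direction of a member. Whether the replicate numbers pair the libraries is not known. The deviations of same-numbered libraries from their group means correlated across genes at 0.0413, -0.0795 and 0.0378. With 3 libraries per age these values cannot settle it. Not every library correlated best with its own number. With a replicate block 1002 genes were higher and 1783 lower, Plaur was again the only member called, and Pros1 passed. Serpinf2 is too low for the fit reported and has no alternative value beside the fit with no filter (log2 0.01, adjusted p = 0.933, limma). The depth behind low values such as those of Procr is unknown.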

Other observations

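Transcripts of platelets stood out in aged replicate 2. Ppbp, a platelet chemokine, was at 9.01 FPKM there, against 0.81 to 2.17 in the other 5 libraries. Gp9, a subunit of the receptor for von Willebrand factor, was at 2.75 FPKM there, Itga2b, a subunit of the fibrinogen receptor, at 1.70, and Clec1b at 1.55. Pf4, another platelet chemokine that macrophages also express, was at 29.8 FPKM there and between 29.6 and 33.9 elsewhere.

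Some liver transcripts were highest in young replicate 1 and others were not. Albumin (Alb) was at 1.82 FPKM there and at 0 to 0.16 in the other 5 libraries. The fibrinogen genes Fga, Fgb and Fgg reached 0.09, 0.13 and 0.19 FPKM in that library, and each was listed at 0 elsewhere. Apoa1 was at 1.22 FPKM there and at 0 to 0.23 elsewhere. Other genes of the hepatocyte list were highest in other libraries: Ttr in aged replicate 3 (1.16 FPKM), Cyp2e1 in aged replicate 1 (0.55) and Ahsg in young replicate 2 (2.93). Upk3b, a marker of the mesothelium that covers the heart, was at 2.36, 1.96 and 0.50 FPKM in aged. In young it was at 1.37, 0.22 and 5.84, so the ages overlapped for Upk3b. Wt1, of the same list, was at 2.70, 3.85 and 3.65 FPKM in aged and at 4.73, 5.22 and 4.27 in young. It was called lower (log2 -0.39, adjusted p = 0.0462, limma), as were 17.1% of all tested genes. The other 3 of the 4 tested mesothelium markers were not called.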
